A study of Bos taurus with 2 samples.

Results

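The miR-2284 and miR-2285 family is a large group of cattle miRNAs, many of which, though not all, have near-identical sequences. It was taken here as every miRNA on the array whose name begins with bta-miR-2284 or bta-miR-2285, which gave 30 of 670 bovine miRNAs. They are 26 miR-2284 names and 4 miR-2285 names, read by 61 probes. Raw milk whey of Holstein cattle was spun for 90 min at 10000 g and 4 °C, a step named ultracentrifugation in the labels. That force is low for the name and may be misprinted, so which particles the pellet holds is uncertain. The exosome group is the pellet, washed in PBS and named for vesicles that cells shed, and the supernatant group is the fluid left above it. Genotype, age and other treatments of the cows are not given in the sources used here. RNA of 3 samples was pooled in equal amounts for each fraction, and 40 ng was labelled with the dye Cy3 and hybridised to a 1-colour Agilent miRNA array. Each fraction is therefore 1 array of a pooled sample, so no difference below has a replicate check and none has a p-value. Each ± value is the SD between spots of the same array, a technical spread.

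A miRNA is a short RNA that is cut from a hairpin precursor and guides Argonaute proteins to messenger RNAs, mainly through its seed, the bases near its 5′ end. The 2 arms of a hairpin can each give a miRNA; an asterisk marks the arm thought to be the less used one. The miR-2284 and miR-2285 miRNAs are known from ruminants, where their genes were copied to many places in the genome, so that many members differ by only a base or a few. Milk carries miRNAs both inside vesicles and outside them, bound to proteins or other particles.

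The probes show how close the members are, and the first set is printed because it holds the detected miR-2284d. Each probe is DNA, written 5′ to 3′, and is the reverse complement of the miRNA stretch it reads. Capitals mark the bases that differ from the longest miR-2284d probe where the probes overlap.
miR-2284d: gaaaaaccctaacgaac
miR-2284a: aaaaacccCaacgaac
miR-2284h: aaacccGaacgaactt
miR-2284x: aaaacccGaacgaact
The second set is centred on miR-2284l, the other detected member, with the same use of capitals.
miR-2284l: aaaaacccgaaccaac
miR-2284h: aaacccgaacGaactt
miR-2284m: aaaacccgaacAaacttt
miR-2284x: aaaacccgaacGaact

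Counted from 1 at the 5′ end of the miR-2284d probe, miR-2284a differed by T10C over 16 bases. By T10G differed miR-2284h, over 14 bases, and miR-2284x, over 15. Counted likewise along the miR-2284l probe, miR-2284h differed by C13G over 14 bases and miR-2284x by C13G over 15. miR-2284m differed by C13A over 15 bases. Bases outside an overlap were not compared. Against each other, the probes of miR-2284d and miR-2284l overlapped by 16 bases with 2 differences. Over overlaps of at least 12 bases, 20 of the 30 members had another member within 1 mismatch and 27 had one within 2. A miRNA outside the family stood within 2 mismatches of 19 members, and the like count for the other miRNAs was not made. The letters CGAAC stood in the longest probe of 21 members and in at least 1 probe of 0.625% of the 640 other miRNAs on the array. Their reverse complement GTTCG was in none of the members' longest probes and in at least 1 probe of 0.625% of the other miRNAs. The letters CCCTAAC were found in miR-2284d and in no other miRNA of the array, and GAACCAA likewise only in miR-2284l.

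The letters CGAAC were absent from the longest probes of the miR-2285 names, and also of miR-2284h*, miR-2284k, miR-2284n, miR-2284t and miR-2284t*. The stretches read by miR-2284s and miR-2285c are shown as RNA because they were the most complementary pair of members, with capitals on the 12 bases that could pair without a gap.
miR-2284s: ccAAAAGUUUGUUCggau
miR-2285c: uGAACAAACUUUUuggc
The miR-2285b stretch was complementary over 10 bases to that of miR-2284q, and the miR-2285d stretch over 8 bases to that of miR-2284j. For miR-2285a the longest such run was 6 bases, to miR-2284t*. The like runs of other miRNAs on the array are not given, so these are not read as a trait of the miR-2285 names.

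The members were scattered over the genome. In the array design's build, HGSC Btau_3.1, their probes lay on 18 chromosomes and, for 3 members, on unplaced sequence. The longest miR-2284d probe was placed at chr15:41974677-41974692, and that of miR-2284l on the unplaced sequence Un.004.1 from base 1781583 to base 1781598. For 26 of the members the interval given is 1 base short of the probe's length, miR-2284d included, which leaves either its start or its end uncertain by 1 base. miR-2284m and miR-2285b each had 2 placements, and their signals cannot be assigned to 1 gene copy. Whether the signal of a member with 1 placement, miR-2284d and miR-2284l included, comes from that gene alone was not tested. miR-2284i and miR-2284x, on chromosome 1, had 27.5 kb between their probes. The pairs miR-2284h with miR-2284h* and miR-2284t with miR-2284t* had gaps of 22 and 25 bases between their probes.

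RefSeq's annotation of another build, ARS-UCD2.0, was used for names and overlaps only. It holds 191 genes of the family, 43 of them named MIR2284 and the rest MIR2285, which is 18.5% of its 1032 miRNA genes. They lie on 30 chromosomes, and 125 of them overlap a protein-coding gene. Of the 28 hairpins on the array, 27 matched a RefSeq gene by name, and miR-2284d did not. A protein-coding gene overlapped 17 of the 28 hairpins. The same share over all 1032 miRNA genes was not counted, so neither overlap count is read as a trait of the family. MIR2284L overlapped STAU2, which encodes a protein that binds double-stranded RNA, and both MIR2284I and MIR2284X overlapped TIAM1, which encodes an activator of the GTPase Rac. MIR2285A overlapped RUNX1, a transcription factor of blood cell development. Strand was not used, so an overlap does not say that the miRNA is cut from that gene's transcript. The array reads few of the RefSeq family genes by name, and members absent from it were not analysed here.

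The first comparison asked which members were seen in each fraction. Only miR-2284d and miR-2284l passed, both on the exosome array; the other 28 were detected on neither array. A probe was called detected when the scanner software marked 50% or more of its spots as well above background, and a miRNA was called with 1 detected probe or more. That is 2 of 30 members on the exosome array (6.67%), beside 9.85% of all 670 miRNAs. On the supernatant array it is 0 of 30, beside 12.7% of all miRNAs. On both arrays it is 0, beside 4.48%. The 241 other cattle-registered miRNAs from miR-2286 to miR-2491 stood at 4.56% and 14.5%. Both detected members are miR-2284 names, and 0 of the 4 miR-2285 names were detected.

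miR-2284d read 24.1 ± 4.32 scanner units on the exosome array over 59 spots, and 13.4 ± 3.54 over 60 spots of the supernatant array. Its spots ranged from 11.4 to 37.3 in exosome and from 5.05 to 21.98 in supernatant, so the ranges overlapped. The longer probe of miR-2284d had all 29 spots well above background on the exosome array and 7 of 30 on the supernatant array. The shorter probe had 22 of 30 and 2 of 30. Every spot of both probes was positive and significant, a weaker flag, on both arrays. That flag was also set in supernatant on 57.7% of negative control spots, which reached 15.1, so the supernatant spots of miR-2284d overlapped those of the controls. On the exosome array it was set on 63.2% of control spots, which reached 15.0, so the lowest miR-2284d spots overlapped the controls there too. The software's own flag for the whole miRNA called miR-2284d on both arrays.

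miR-2284l read 17.8 ± 3.67 on the exosome array over 57 spots, and 6.67 ± 3.78 over 59 spots of the supernatant array. Its spots ran from 8.77 to 28.2 and from -2.98 to 17.0, again with some overlap. On both arrays they also overlapped the negative control spots, which reached 15.0 in exosome and 15.1 in supernatant. On the exosome array its longer probe had 18 of 30 spots well above background and passed, while the shorter had 10 of 27 and did not. On the supernatant array 0 of 59 spots were well above background. miR-2284l thus rested on 1 probe near the threshold, and with every probe required miR-2284d was the 1 member detected in exosome, beside 5.22% of all miRNAs, and 0 were in supernatant, beside 11%.

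**Figure D1:**
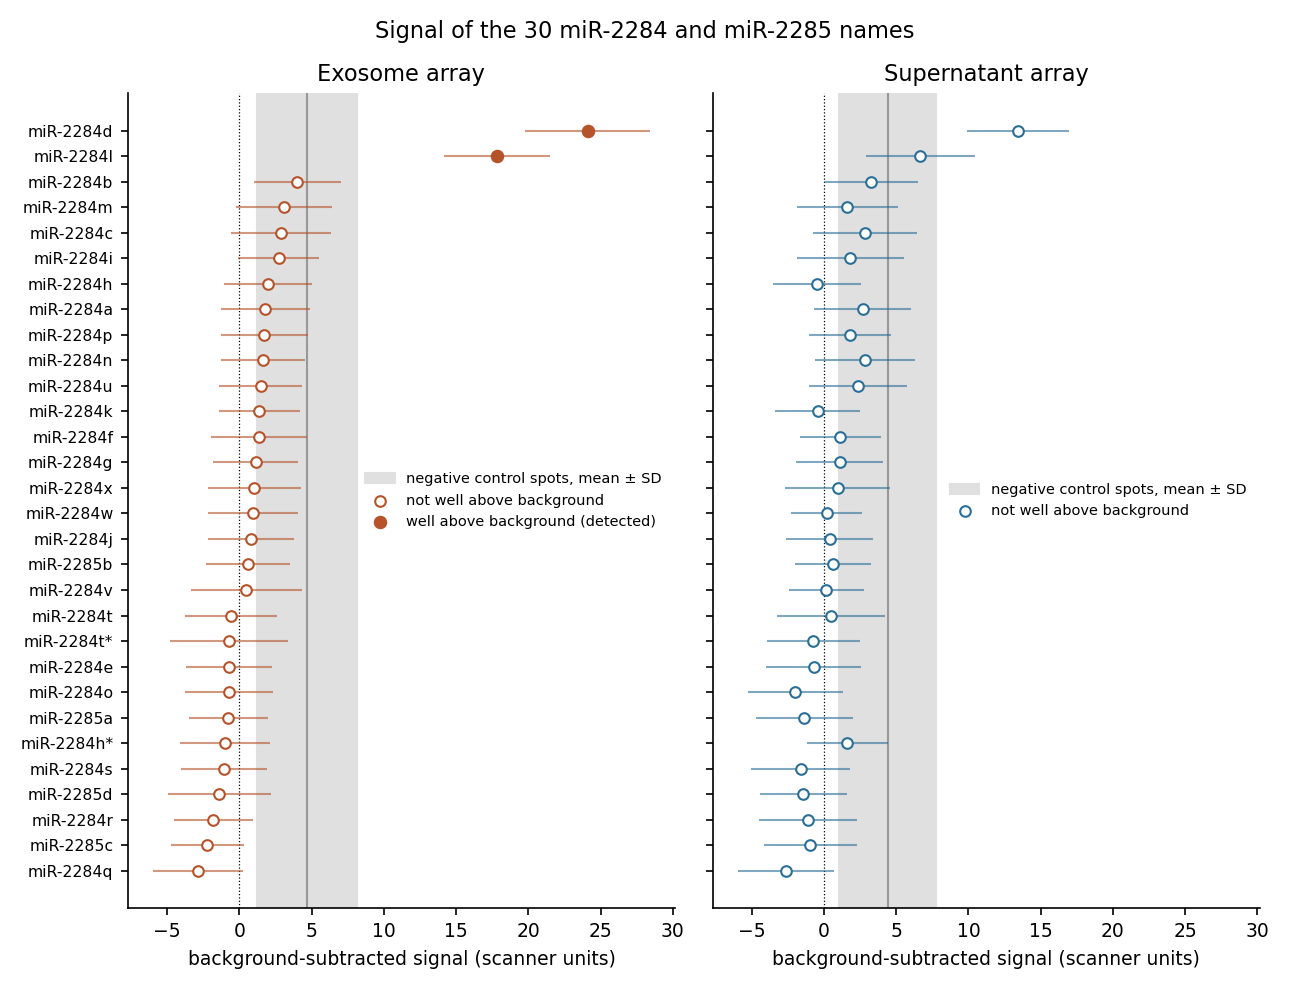
Background-subtracted signal in scanner units (horizontal axis) of the 30 miRNAs on the exosome array (left) and the supernatant array (right). Points are means over a miRNA's probes, bars are SDs between spots, filled points are detected, and the grey band is the mean ± SD of the negative control spots; miR-2284d and miR-2284l stand to the right of the band on the exosome array, and miR-2284d on the supernatant array.

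Both signals were low for these arrays. The 66 miRNAs detected on the exosome array had a median of 33.5, and 22 of them read below miR-2284d and 11 below miR-2284l. The lowest detected signal was 8.21 there and 7.04 on the supernatant array. The highest signal not called was 15.7 on the exosome array (miR-2486) and 15.5 on the supernatant array (miR-2288). Detected and undetected miRNAs thus overlap in signal, since the flag is set spot by spot and a miRNA's mean includes its undetected probe. The supernatant value of miR-2284d falls inside this overlap.

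**Figure D2:**
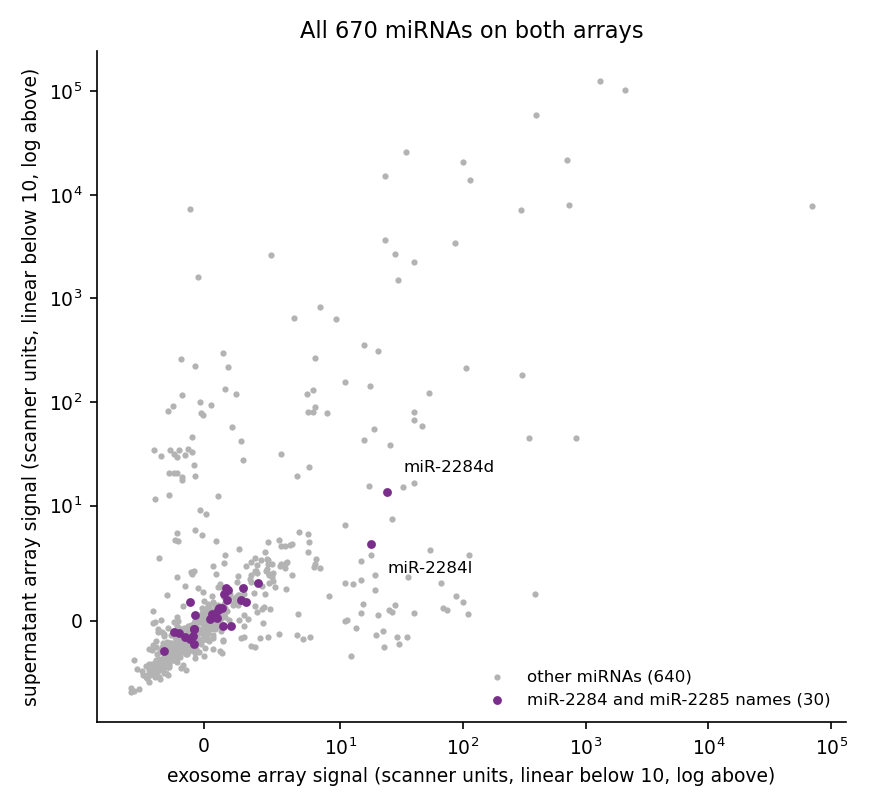
Signal of all 670 miRNAs on the exosome array (horizontal) and the supernatant array (vertical), in scanner units, on axes that are linear below 10 and logarithmic above. Purple points are the 30 family miRNAs, which lie in the dim corner except for miR-2284d (24.1 and 13.4) and miR-2284l (17.8 and 6.67); grey points are the 640 others.

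The members closest in sequence to the detected ones gave no such signal. On the exosome array miR-2284a, miR-2284h and miR-2284x, 1 mismatch from miR-2284d over 14 to 16 overlapping bases, read between 1.03 and 1.98. None of their spots was well above background. miR-2284h, miR-2284m and miR-2284x, 1 mismatch from miR-2284l over 14 to 15 overlapping bases, read between 1.03 and 3.1. In the supernatant miR-2284a read 2.67, miR-2284m 1.61, miR-2284x 0.96 and miR-2284h -0.49. The 14 undetected members within 2 mismatches of miR-2284d spanned -1.81 to 4.01 on the exosome array, and the 15 within 2 of miR-2284l spanned -1.81 to 3.1. Outside the family, miR-2434 had a probe 2 mismatches from miR-2284d over 13 bases and 1 from miR-2284l over 12. For miR-2325a it was 2 from miR-2284l over 15 bases. Neither miR-2434 (4.77 in exosome and 4.01 in supernatant) nor miR-2325a (4.63 and 4.48) was detected. Probes differ in how strongly they bind, so these values show which probes lit up, not the relative abundance of the members.

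**Figure D3:**
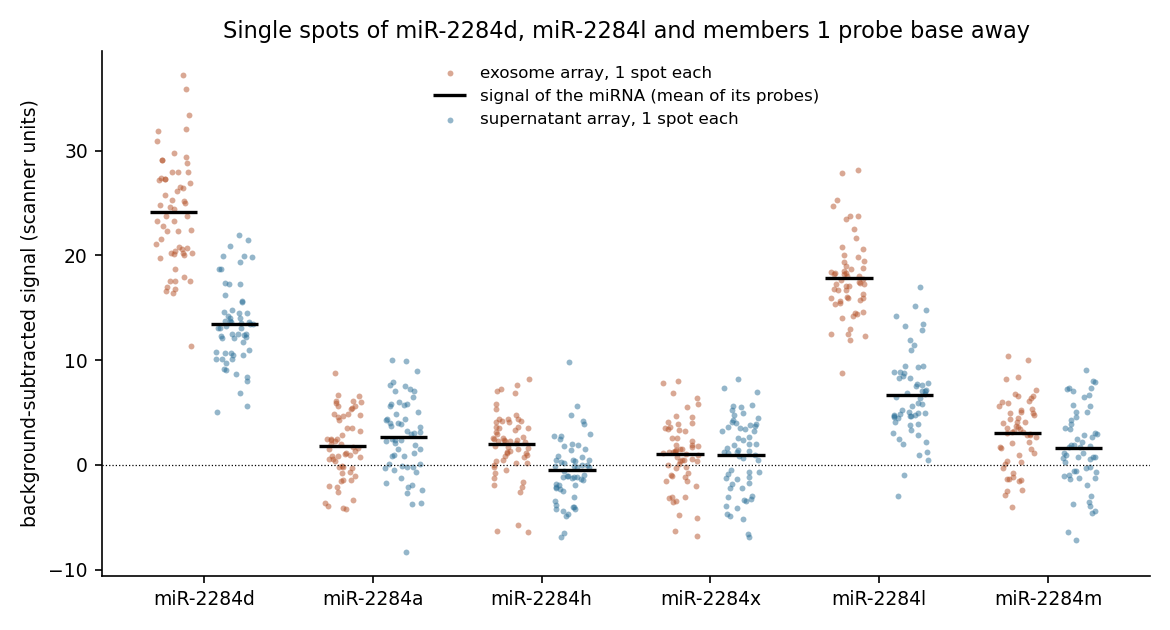
Single-spot signals in scanner units (vertical axis) on the exosome array (orange) and the supernatant array (blue). Shown are miR-2284d, miR-2284l and the members whose probes differ from either by 1 base within an overlap of 14 to 16 bases. Black bars are the miRNA's signal. Spots of miR-2284d on the exosome array span 11.4 to 37.3, while the bars of miR-2284a, miR-2284h, miR-2284x and miR-2284m lie between -0.49 and 3.1.

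The 28 undetected members read between -2.89 (miR-2284q) and 4.01 (miR-2284b) on the exosome array, with a median of 0.875, and between -2.63 (miR-2284q) and 3.25 (miR-2284b) on the supernatant array, with a median of 0.439. Not 1 of their spots was well above background, 0 of 1650 and 0 of 1647. The 521 other miRNAs detected on neither array had medians of -0.933 and -1.38, with 0.145% and 0.069% of their spots well above background. The negative control spots read 4.67 ± 3.46 over 981 spots and 4.41 ± 3.35 over 976, and all 28 undetected members read below the mean of these controls on both arrays. So did most of the array, as the upper quartile of signal over all 670 miRNAs was 2.55 in exosome and 2.99 in supernatant. Over all 30 members the median signal was 0.981 in exosome and 0.547 in supernatant, beside -0.519 and -0.673 over all 670 miRNAs.

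Across the 28 undetected members, the mean over odd-numbered spots and the mean over even-numbered spots had a Pearson correlation of 0.875 in exosome and 0.913 in supernatant. Between the arrays the correlation across these 28 was 0.807. The points share their probes, the slide and many bases, and members are not replicates, so these are descriptions.

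**Figure D4:**
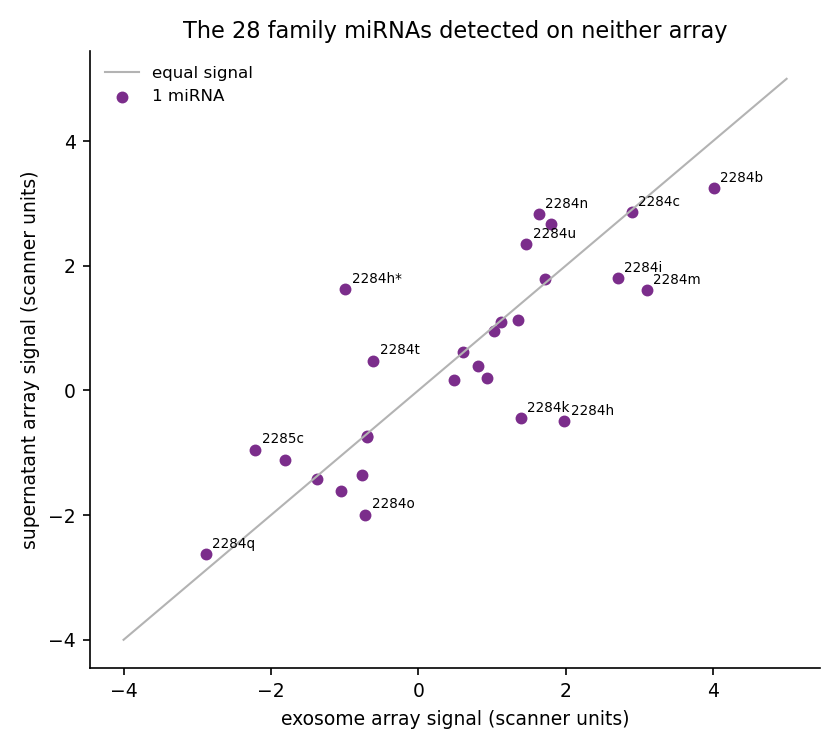
Signal on the exosome array (horizontal) against the supernatant array (vertical), in scanner units, for the 28 family miRNAs detected on neither array; the grey line marks equal signal. The points run along the line from miR-2284q (-2.89 and -2.63) to miR-2284b (4.01 and 3.25), and miR-2284h and miR-2284h* lie farthest from it, on opposite sides.

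Of the 28, 18 read higher in exosome and 10 in supernatant, with a median difference of 0.047 units. Of the 521 other miRNAs detected on neither array, 365 read higher in exosome, with a median difference of 0.527 units. Among the 28, the extremes were the 2 arms of 1 hairpin. miR-2284h read 1.98 ± 3.06 and -0.49 ± 3.06, and miR-2284h* read -0.99 ± 3.12 and 1.62 ± 2.78. Both probes of each went the same way, though every value was below the mean of the negative controls, and with 1 array per fraction these differences cannot be told from a difference between arrays. Of the other hairpin with both arms on the array, miR-2284t read -0.61 and 0.48 and miR-2284t* read -0.70 and -0.74. Among the miR-2285 names, miR-2285b read 0.604 and 0.615, miR-2285a read -0.76 and -1.36, miR-2285c -2.21 and -0.95, and miR-2285d -1.38 and -1.42.

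With the weaker flag of positive and significant spots, 5 members passed on the exosome array, beside 26.3% of all miRNAs, and 4 on the supernatant array, beside 27.0%. miR-2284b, miR-2284d and miR-2284l passed on both, beside 18.4% of all miRNAs, miR-2284i and miR-2284m on the exosome array alone, and miR-2284a on the supernatant array alone. This flag also passed 6 of 7 negative controls on the exosome array and 5 of 7 on the supernatant array, so a pass does not separate a member from background. The software's flag for a whole miRNA gave 2 members on the exosome array, beside 11.8% of all miRNAs, and 1 on the supernatant array, beside 13.6%. That 1, miR-2284d, was also the only member this flag called on both, beside 5.82%. The authors' deposited value table lists the log2 signal of 28 members at 0 for exosome and of 29 for supernatant, beside 88.2% and 86.4% of all 670 miRNAs.

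The second comparison asked how far miR-2284d and miR-2284l differed between the fractions. Both were taken up because they passed on the exosome array and not on the supernatant array, a choice that favours a higher exosome value, so the sizes below are descriptions. For miR-2284d the ratio is that of its own measured signals. For miR-2284l the exosome signal was divided by 7.04, the lowest detected supernatant signal, because its own was lower. Undetected miRNAs read up to 15.5 on the supernatant array, so neither ratio is a strict lower bound. Without scaling, the ratio of exosome to supernatant was 1.80-fold for miR-2284d and 2.53-fold for miR-2284l. The supernatant signal of miR-2284l lay within 1 SD of the negative control mean, so its measured ratio has no reliable denominator.

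The size of the difference depends on how the arrays are scaled. Over the 53 probes detected in both fractions, the 75th percentile was 473 in exosome and 15030 in supernatant, and division by it adds 4.99 to each log2 difference. After this scaling the same ratios were 57.1-fold for miR-2284d and 80.4-fold for miR-2284l, higher in exosome. A ratio of at least 2-fold, measured or against the lowest detected signal, was held after scaling by these 2 of the 30 members (6.67%). Over all 670 miRNAs the share was 7.76%. Without scaling it was held by miR-2284l alone among the 30 members, beside 5.07% of all miRNAs. When the arrays were scaled to the labelling controls, RNAs added before labelling, the direction turned. The log2 difference of the measured signals became -0.74 for miR-2284d and -0.17 for miR-2284l. The software's background correction was also replaced by normexp, a model-based one that here adds an offset of 50, above the signals of both miRNAs. The unscaled log2 difference was then -0.12 for each. With normexp the median signal of all 30 members was also lower in exosome, 68.5 beside 86.8 in supernatant, so this sign was not particular to the 2 miRNAs. With normexp and the 75th percentile scaling it was 4.69 for each. The direction for both miRNAs therefore turned with scaling to the labelling controls, and with normexp when the arrays were left unscaled.

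Probe composition differed between the family and the rest of the array. The longest probes of the family had a median GC content of 41.2% and a median of 50% A, against 50% GC and 27.8% A for the other 640 miRNAs. The other miRNAs detected on the supernatant array had a median GC content of 71.4% and a median length of 14 bases, and no longest probe of the family exceeded 53.3% GC. Those detected on the exosome array had a median of 52.9% GC and 17 bases, and the family also had 17 bases. The probes of miR-2284d and miR-2284l had 41.2% and 43.8% GC, within the 25% to 53.3% spanned by the longest probes of the undetected members. The part of composition in the detection of the family was not tested.

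As a check of the fractions, 6 of 6 epithelial miRNAs (miR-141, miR-148a, miR-200a, miR-200b, miR-200c and miR-375) were detected on the exosome array, at 24.8 to 343, and 3 of 6 on the supernatant array. Leukocyte miRNAs were detected in 0 of 6 and 1 of 6 cases, red blood cell miRNAs in 0 of 3 and 1 of 3, and muscle miRNAs in 0 of 4 and 2 of 4. Their levels on the exosome array spanned -2.85 to 6.83, -1.79 to 0.467 and -0.592 to 6.12. On the supernatant array they spanned -3.02 to 19.3, -0.62 to 34.1 and -1.04 to 78.9. Their part in the signals of miR-2284d and miR-2284l was not tested.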

How the data were processed

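Per the submitters' processing notes, the spots were read by version 10.7.3.1 of Agilent Feature Extraction. The authors' deposited scanner values are intensities, background-subtracted per spot (the processed signal lay within 0.5 units of the subtracted signal) and not scaled between arrays. The authors' value table, as deposited, holds log2 values: each entry is log2 of the software's total signal over 0.1, with a column median of 0 on both arrays over 691 entries.

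Each miRNA had 60 spots per array. Outlier spots, 34 of 1800 family spots on each array, were left out; 0 family spots were saturated. Spots were averaged per probe and then over a miRNA's probes, and the SD is the root mean square of the probes' SDs between spots. Scaling divided by the 75th percentile over probes detected on both arrays. Members, lists and alternatives were chosen with earlier results of these data known. Named are members detected on at least 1 array, or positive and significant on both, the brightest and dimmest undetected members, and their nearest neighbours in sequence; other members and letter patterns were chosen after their values were seen. Mature miRNA sequences, and so seeds, were not used here. No test was possible with 1 array for each fraction, and the number of arrays limits the precision. The steps were tested on simulated data whose present miRNAs were all brighter than miR-2284d and miR-2284l, so calls at their level were not tested. Normexp correction used limma 3.58.1 under R 4.3.3; the rest used pandas 2.3.3 and numpy 2.4.6 under Python 3.11.15, with plots by matplotlib 3.10.9.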

Additional observations from a re-analysis of the deposited data

How the results depend on the processing

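With outlier spots kept, and with odd or even spots alone, the exosome array kept a count of 2 detected members and the supernatant array a count of 0. With spots positive and significant the counts were 5 in exosome, 4 in supernatant and 3 in both, with every probe required 1, 0 and 0, and with the software's flag 2, 1 and 1. The median signal of the members moved from 0.981 to 1.67 in exosome and from 0.547 to 1.47 in supernatant with the brightest probe, and to 1.06 and 0.963 with outlier spots kept. With normexp background correction, which adds an offset of 50, it was 68.5 and 86.8. With normexp the unscaled log2 difference of the measured signals, 0.85 and 1.42, turned to -0.12 for both miR-2284d and miR-2284l. With normexp and the 75th percentile over probes detected on both arrays it was 4.69 for both. Without normexp, scaling to the labelling controls gave -0.74 and -0.17, and to the hybridisation controls 0.93 and 1.50. The 75th percentile over all probes gave 1.10 and 1.67, and quantile normalization 2.31 and 2.32. The cause was not tested. As 0 members were detected on both arrays, the planned medians over such members had no value. The signal over background limits what can be said of the 28 undetected members: their values bound no fold in either direction.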
